A study of Mus musculus with 12 samples.

Results

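Type I interferons are antiviral cytokines that cells release after sensing foreign or misplaced nucleic acid. They bind a shared receptor whose kinases activate transcription factors, STAT2 and its partner IRF9 among them, and these switch on a large set of interferon-stimulated genes. Macrophages are sensors and targets of the cytokine at once, and many of the induced genes encode the sensors and transcription factors of the same pathway, which gives the response its feedback. The genes described here are 31 members of this response, chosen by gene name: the ligand Ifnb1, 3 genes of signalling and negative feedback, 4 nucleic acid sensors, 3 Ifit genes, 5 genes of the OAS family, 2 Mx genes, 7 other antiviral effectors and 6 interferon-inducible GTPases. All 31 were found among the 34797 gene names on the array, and all 31 were among the 17596 genes tested.

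The cells were RAW264.7, an established mouse macrophage-like tumour line. Per the labels they were grown in medium with 10% serum. They were then kept for 24 h in medium with 0.5% fatty acid-free BSA, which every group received, in 4 groups of 3 samples. The control group had neither agent, the FABP4 group had 200 nM recombinant FABP4, the palmitic acid group had 0.2 mM palmitic acid, and the last group had both at these doses. FABP4 is a fatty acid carrier of fat cells and macrophages that is also released from cells. Palmitic acid is the main saturated fatty acid of the diet and of animal fat. The design asks what each agent does alone, and whether either changes the response to the other. The labels number the samples of a group but do not say whether they were separate cultures, so p-values speak only of the spread among the samples measured, and part of it could be technical.

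Each RNA sample was read on 1 single-colour Agilent array. Between 42.8% and 46.7% of the gene spots of an array were well above background, and all 31 members were well above background on all 12 arrays, with no saturated spot on any array. Values are given below as log2 signal relative to the 75th percentile of the same array, so a value of 1 is a signal of 2 times that percentile, and a difference of 1 is a doubling. The arrays lay on 2 slides, and the groups were not spread evenly over them. Slide 1 held the 3 controls and FABP4 array 1, and slide 2 held all other arrays, palmitic acid arrays included. The comparison of palmitic acid with control therefore runs entirely between slides, and only the FABP4 group was present on both. Of the macrophage markers, 9 of 10, among them Csf1r and Cd68, were tested and were well above background on all 12 arrays, and the other one, Spi1, was not found under that name. Of 5 genes each, 1 fibroblast marker and 1 adipocyte marker passed the same filter, with Col1a1, Col3a1, Pdgfra and Dcn, and Adipoq, Plin1, Cfd and Lep, not passing it.

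The promoters of several members are shown first, because the interferon signal acts on them through short DNA elements. RefSeq windows of 300 bases, from 250 before to 50 after the start of transcription (build GRCm38.p6), were found for 23 of the 31 members. Both strands were searched for GAAANNGAA, the core of an interferon-stimulated response element, and for TTCNNNGAA, the core of a STAT site, which reads the same on both strands. The first core was present in the windows of 15 of these 23 members, or in 57.1% of their 28 windows, against 8.56% of all 32851 windows. It occurred 2 or more times, overlapping matches included, in at least 1 window of 7 of the 23 members. Counted by window and not by gene, 0.624% of all windows had 2 or more. The second core was present for 5 of the 23 members, Ifit2, Oas1a, Isg20, Gbp5 and Igtp, or in 17.9% of windows against 8.3% of all windows. A match is only a run of letters and not a measured binding site. The 250 bases upstream of the start are printed in the direction of transcription, with matches in capitals, for the 4 members that rose in a comparison below and for Isg15 and Ifit1, whose promoters carry 3 overlapping or close matches each. Ifnb1 lies at chr4:88522795-88523044 on the minus strand, Rsad2 at chr12:26456453-26456702 on the minus strand and Cmpk2 at chr12:26468965-26469214 on the plus strand. Igtp lies at chr11:58199306-58199555 on the plus strand, Isg15 at chr4:156200819-156201068 on the minus strand and Ifit1 at chr19:34640639-34640888 on the plus strand.
Ifnb1: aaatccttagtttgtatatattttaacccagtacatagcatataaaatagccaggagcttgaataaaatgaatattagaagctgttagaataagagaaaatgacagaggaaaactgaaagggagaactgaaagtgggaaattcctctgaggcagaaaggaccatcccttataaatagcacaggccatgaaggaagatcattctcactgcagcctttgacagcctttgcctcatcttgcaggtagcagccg
Rsad2: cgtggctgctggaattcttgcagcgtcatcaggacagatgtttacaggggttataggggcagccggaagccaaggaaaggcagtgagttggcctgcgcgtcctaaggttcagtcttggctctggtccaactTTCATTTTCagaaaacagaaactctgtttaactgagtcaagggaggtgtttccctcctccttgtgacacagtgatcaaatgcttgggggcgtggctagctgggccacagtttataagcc
Cmpk2: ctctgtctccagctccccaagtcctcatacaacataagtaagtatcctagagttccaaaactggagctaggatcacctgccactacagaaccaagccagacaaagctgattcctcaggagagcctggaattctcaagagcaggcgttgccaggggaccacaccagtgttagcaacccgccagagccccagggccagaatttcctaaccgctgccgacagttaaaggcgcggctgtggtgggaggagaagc
Igtp: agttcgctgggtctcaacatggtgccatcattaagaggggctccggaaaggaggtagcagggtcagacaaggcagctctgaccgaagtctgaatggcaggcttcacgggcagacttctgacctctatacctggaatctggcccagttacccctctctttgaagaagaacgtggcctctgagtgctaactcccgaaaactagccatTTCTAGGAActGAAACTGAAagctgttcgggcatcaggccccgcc
Isg15: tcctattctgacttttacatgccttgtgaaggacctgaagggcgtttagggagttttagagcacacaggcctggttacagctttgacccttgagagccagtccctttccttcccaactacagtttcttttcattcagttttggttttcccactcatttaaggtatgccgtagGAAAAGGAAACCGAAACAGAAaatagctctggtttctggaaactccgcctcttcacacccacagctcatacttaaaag
Ifit1: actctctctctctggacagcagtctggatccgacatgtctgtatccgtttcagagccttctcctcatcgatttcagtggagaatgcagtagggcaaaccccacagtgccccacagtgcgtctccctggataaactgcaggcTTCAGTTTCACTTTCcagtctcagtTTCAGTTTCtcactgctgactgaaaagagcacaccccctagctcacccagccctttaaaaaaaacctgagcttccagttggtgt
In Rsad2 the match stands 119 bases before the start. In Igtp a STAT core begins 45 bases before the start and a response element core 34 bases before it, with only 2 bases between them. In Isg15 the 3 matches overlap in a row that begins 78 bases before the start. Neither core was matched in the windows of Ifnb1 and Cmpk2, which says only that these letters are not in these windows. Rsad2 and Cmpk2 are neighbours that are transcribed away from each other, with start sites 12763 bases apart. Their probes map in mm9 to chr12:27127859-27127918 and chr12:27164119-27164178, that of Ifnb1 to chr4:88168023-88168082 and that of Igtp to chr11:58020927-58020986. The parts of the transcripts that these probes cover were not assigned here, since no annotation of that build was used.

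Palmitic acid without FABP4 was compared with control first. Ifnb1, Igtp, Rsad2 and Cmpk2 rose, by 1.17- to 1.36-fold, and no member fell. These 4 of 31 members are 12.9% of the list, where 4.88% of all genes tested rose and 3.73% fell (limma, Benjamini-Hochberg adjusted p under 0.05 over all 17596 genes). The median difference over the 31 members was 0.01 on the log2 scale, with 18 members above 0 and 13 below, beside a median of 0.00 over all genes tested. At an unadjusted p under 0.05 there were 8 members, or 25.8%, against 26.5% of all genes. The other 27 members were not called. Taken over all members, the 95% confidence intervals reached from -0.30 at the lowest to 0.59 at the highest.

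Ifnb1 encodes interferon beta, the ligand of the list. Its values were 0.44, 0.52 and 0.39 on the control arrays and 1.03, 0.79 and 0.84 on the palmitic acid arrays. Every palmitic acid array was above every control array, and the arrays with FABP4 alone, at 0.56, 0.49 and 0.45, lay close to the controls. The rise was 0.44 ± 0.07 (SE, n = 3 against 3), or 1.36-fold, with a limma adjusted p of 0.00506. It passed the threshold with each of the 12 arrays left out in turn, the highest adjusted p being 0.0255.

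Rsad2 encodes viperin, an enzyme that makes a chain-terminating nucleotide from CTP and so blocks viral RNA synthesis. It read 8.77, 8.80 and 8.84 on the control arrays and 9.02, 9.11 and 9.06 on the palmitic acid arrays, without overlap. The rise was 0.26 ± 0.05 (SE), or 1.20-fold, with a limma adjusted p of 0.0147. The call was lost without control array 1 (limma adjusted p = 0.0598) and without palmitic acid array 2 (limma adjusted p = 0.0579).

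Cmpk2, a nucleotide kinase of mitochondria whose gene lies beside Rsad2, read 7.26, 7.30 and 7.28 on the control arrays. On the palmitic acid arrays it read 7.55, 7.51 and 7.45, again without overlap. The rise was 0.22 ± 0.06 (SE), or 1.17-fold, and its limma adjusted p of 0.0493 was just inside the threshold. It stayed inside with only 2 of the 12 arrays left out in turn, FABP4 arrays 1 and 3. Without any one of the other 10 arrays the limma adjusted p lay between 0.0542 and 0.135, although the difference stayed between 0.20 and 0.25. A second Cmpk2 probe gave a difference of 0.27 (limma unadjusted p = 0.00254). Of the 10 members with a second probe, 9 had the same sign on both in this comparison. The second Gbp5 probe differed by -0.12 (limma unadjusted p = 0.0202), where its brightest probe gave -0.02, and no other second probe fell under 0.05.

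Igtp encodes an immunity-related GTPase that acts on the vacuoles of intracellular parasites and responds to interferons of both types. It was spotted 10 times per array, with 1 spot left out as an outlier on 1 array, and its spots on one array had an SD of 0.023 to 0.056 in log2 signal. The control arrays read 5.92, 6.00 and 6.05 and the palmitic acid arrays 6.25, 6.30 and 6.31, so the groups did not overlap. The rise was 0.30 ± 0.06 (SE), or 1.23-fold, with a limma adjusted p of 0.0164. The call was lost without control array 1, palmitic acid array 2 or palmitic acid array 3, with limma adjusted p-values of 0.0657, 0.0568 and 0.0515.

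**Figure D1:**
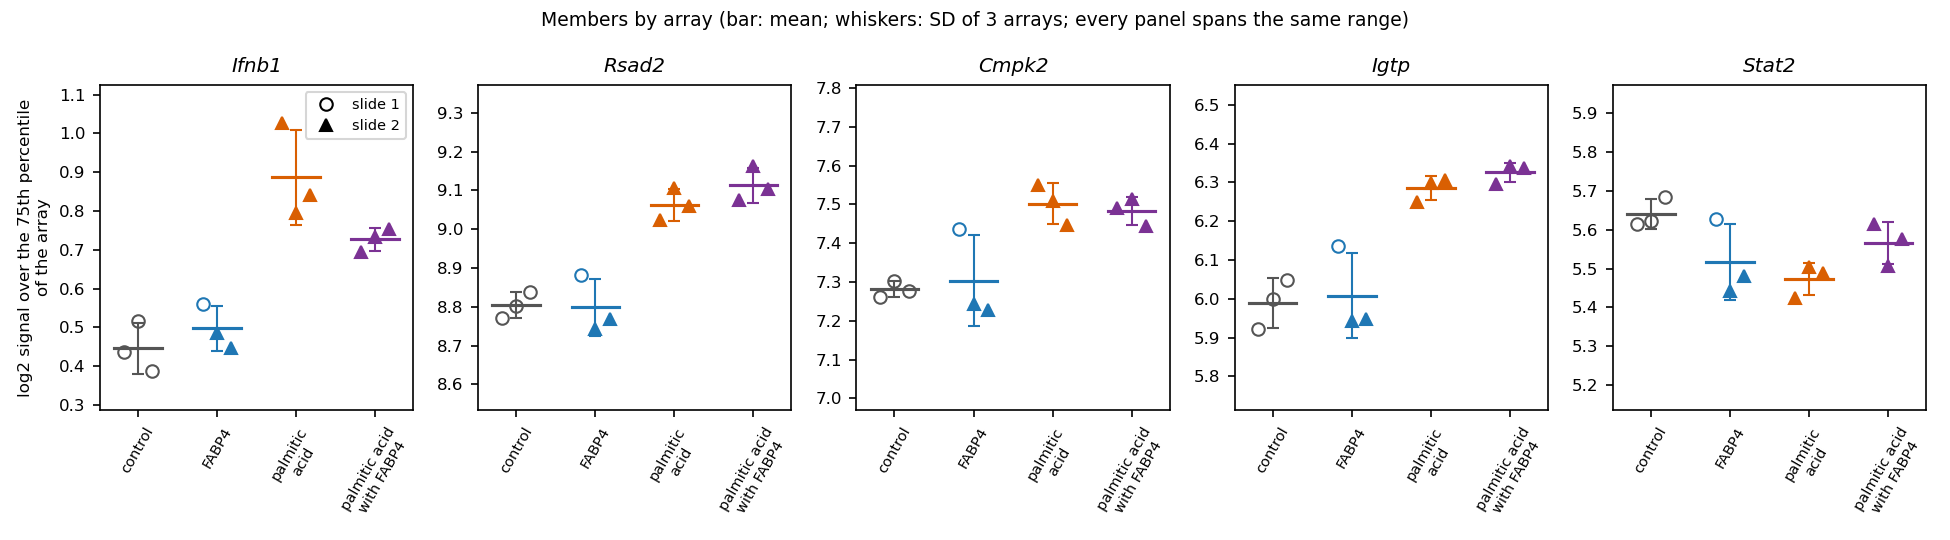
Log2 signal relative to the array's 75th percentile (vertical axis, each panel spanning the same range) for 5 members in the 4 groups (horizontal axis). Each point is an array, open circles on slide 1 and filled triangles on slide 2, and bars and whiskers are the mean and SD of 3 arrays. In Ifnb1, Rsad2, Cmpk2 and Igtp the palmitic acid arrays lie above all controls, and in Stat2 they lie below.

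Among the members that were not called, 4 more had palmitic acid arrays all above the controls: Oas3, Oasl2, Mx2 and Gbp2. With the called genes this makes 8 of 31 members without overlap on the high side, or 25.8%, where 17.5% of all genes tested had this pattern. Stat2, Ifit3 and Trim30a had palmitic acid arrays all below the controls, which is 3 of 31 members where 16.4% of all genes tested did so. Of the uncalled members, Oas3, an enzyme that makes the 2-5A messenger of RNase L, had the lowest adjusted p for a rise, with a difference of 0.19 ± 0.06 (SE; limma adjusted p = 0.0673).

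Stat2 is the transcription factor specific to the type I and III interferon signal. It read 5.61, 5.62 and 5.68 on the control arrays and 5.42, 5.50 and 5.49 on the palmitic acid arrays. The difference of -0.17 ± 0.06 (SE) had a limma adjusted p of 0.0986 and was not called. With quantile normalization it was -0.19 (limma adjusted p = 0.0263), and without FABP4 array 1 it was -0.17 (limma adjusted p = 0.0396), both inside the threshold. FABP4 arrays 2 and 3, which share slide 2 with the palmitic acid arrays, read 5.44 and 5.48, and FABP4 array 1 on slide 1 read 5.63. With slide as a block the difference was -0.00 (limma adjusted p = 0.995).

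Of the groups without a called member, 4 more are described by their first gene. Ddx58 encodes RIG-I, a sensor of viral RNA ends. It read 6.85, 6.87 and 6.84 in controls, 6.73, 6.77 and 6.83 with FABP4, 6.94, 6.84 and 6.93 with palmitic acid, and 6.90, 6.85 and 6.91 with both agents. Ifit1 encodes a protein that binds viral RNA lacking a host cap methyl group. It read 6.66, 6.59 and 6.58 in controls, 6.80, 6.68 and 6.46 with FABP4, 6.60, 6.47 and 6.61 with palmitic acid, and 6.56, 6.65 and 6.63 with both. The FABP4 arrays of Ifit1 were spread more widely than those of the other groups, with an SD of 0.17. Oas1a, a 2-5A synthetase, read 8.96, 8.94 and 8.96 in controls, 8.98, 8.83 and 8.94 with FABP4, 8.86, 8.88 and 8.94 with palmitic acid, and 8.93, 8.96 and 9.01 with both. Mx1, a dynamin-like GTPase that traps viral ribonucleoproteins, read 4.95, 5.08 and 4.98 in controls, 4.91, 4.97 and 4.80 with FABP4, 5.01, 4.89 and 4.96 with palmitic acid, and 4.92, 4.80 and 4.90 with both. In none of these 4 genes did palmitic acid, alone or with FABP4, pass the threshold.

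By role, the difference between palmitic acid and control had a median of 0.01 over the 3 signalling and feedback genes, 0.00 over the 4 sensors, -0.05 over the 3 Ifit genes, 0.06 over the 5 OAS genes and 0.05 over both Mx genes. It had a median of -0.00 over the 7 other effectors and 0.07 over the 6 GTPases. None of the 17 genes in the signalling, sensor, Ifit, OAS and Mx groups passed the threshold in this comparison, and 2 of the effectors and 1 of the GTPases did. With 4.88% of all genes rising, these small counts do not set one role apart from another. Isg15, the ubiquitin-like modifier, differed by 0.01, with a 95% confidence interval from -0.09 to 0.11, and its second, dimmer probe differed by 0.12 (limma unadjusted p = 0.0564). Usp18, the protease that removes it and dampens the receptor, differed by 0.05 (95% confidence interval -0.06 to 0.16).

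**Figure D2:**
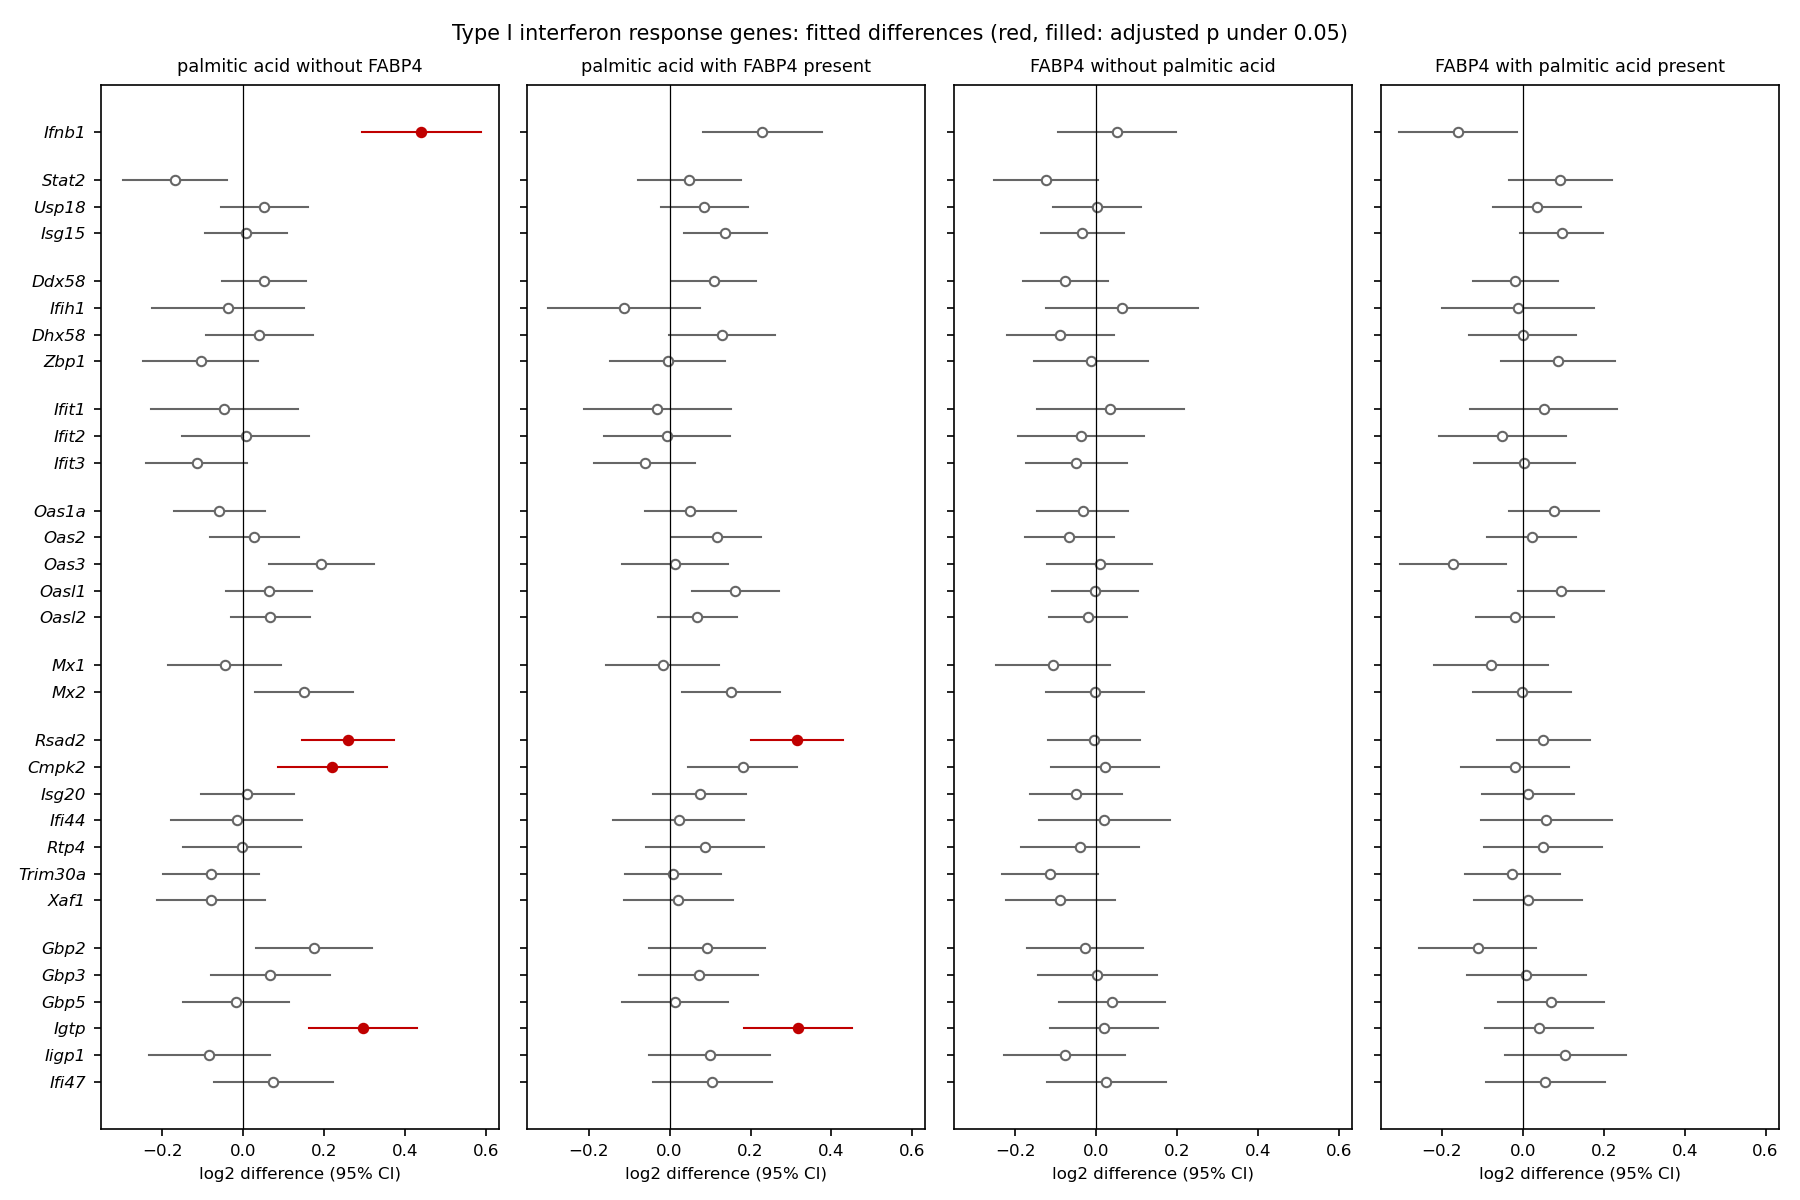
Fitted log2 difference (horizontal axis) with its 95% confidence interval for the 31 members (rows, in role groups) in 4 comparisons (panels). Filled red points passed an adjusted p under 0.05: Ifnb1, Rsad2, Cmpk2 and Igtp for palmitic acid without FABP4, Rsad2 and Igtp for palmitic acid with FABP4 present, and no member for either FABP4 comparison.

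The slide bears on all of this. With slide as a fixed block, Igtp (0.49 ± 0.08, SE; limma adjusted p = 0.032) and Cmpk2 (0.42 ± 0.08, SE; limma adjusted p = 0.0435) kept their calls. These were 2 of 31 members where 0.443% of all genes tested rose. Ifnb1 (0.53 ± 0.12, SE; limma adjusted p = 0.0813) and Rsad2 (0.39 ± 0.08, SE; limma adjusted p = 0.0643) no longer passed, with larger differences and larger errors. In this fit 26 of 31 members were above 0, with a median of 0.12, beside 0.04 over all genes tested. The slide term rests on a single array, since FABP4 array 1 is the only array that shares slide 1 with the controls and a group with slide 2. That array was above both other FABP4 arrays in 26 of 31 members, against 50.9% of all genes tested. The block adds its excess over FABP4 arrays 2 and 3 to the difference from control, which raised most members. With slide as a random block Igtp and Ifnb1 passed, with limma adjusted p-values of 0.0464 and 0.0354, where 135 of all 17596 genes tested rose. Rsad2 (0.31, limma adjusted p = 0.0563) and Cmpk2 (0.31, limma adjusted p = 0.0825) did not pass, with differences larger than without the block. Within slide 2, the palmitic acid arrays exceeded FABP4 arrays 2 and 3 by 0.42 for Ifnb1, 0.34 for Igtp, 0.31 for Rsad2 and 0.27 for Cmpk2, a comparison of the agents with each other. Within slide 1, FABP4 array 1 exceeded the mean of the controls by 0.11, 0.15, 0.08 and 0.16 in the same genes.

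**Figure D3:**
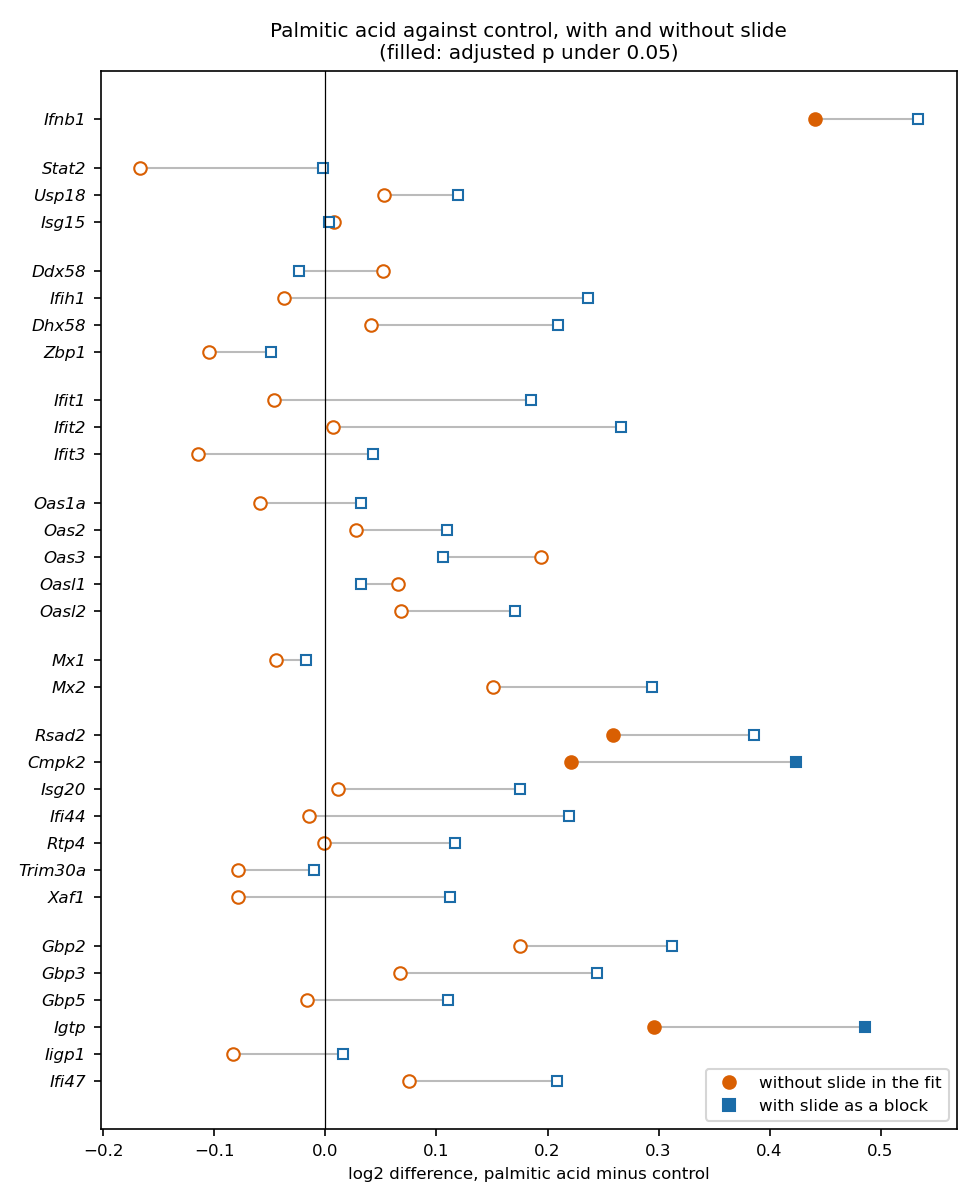
Log2 difference between palmitic acid and control (horizontal axis) for each member (rows), fitted without slide (circles) and with slide as a block (squares), filled where the adjusted p was under 0.05. The squares of 26 of 31 members lie above 0, and Stat2 moves from -0.17 to about 0.

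Palmitic acid was next compared in the presence of FABP4, with group means from arrays in neither group of the first comparison. All arrays entered the same fit, so both comparisons share its estimate of the spread and their p-values are not independent. Rsad2 and Igtp rose, by 1.24- and 1.25-fold, and no member fell. They are 6.45% of the 31 members, where 2.86% of all genes tested rose and 0.943% fell. The median over the members was 0.07, with 25 above 0 and 6 below, beside 0.05 over all genes tested. Unadjusted p-values under 0.05 were found for 9 members, or 29%, against 20.9% of all genes.

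Rsad2 read 8.88, 8.74 and 8.77 with FABP4 alone and 9.07, 9.16 and 9.10 with both agents. The rise was 0.32 ± 0.05 (SE), with a limma adjusted p of 0.00954. It passed with each of the 12 arrays left out in turn, but only just without array 2 with both agents (limma adjusted p = 0.0499). Igtp read 6.14, 5.94 and 5.95 with FABP4 alone and 6.30, 6.34 and 6.34 with both, a rise of 0.32 ± 0.06 (SE; limma adjusted p = 0.0189). Neither gene had overlapping groups, and FABP4 array 1 was the highest of its group in both. The Igtp call was lost without FABP4 array 2 or 3, or without any one of the 3 arrays with both agents, at limma adjusted p-values of 0.0727, 0.0582, 0.0616, 0.0753 and 0.0663. Rsad2 and Igtp are 2 of the 4 members called without FABP4 and both of those called with it.

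Ifnb1 was not called in this comparison. It read 0.70, 0.73 and 0.75 with both agents, all above the FABP4 arrays, with a difference of 0.23 ± 0.07 (SE; limma adjusted p = 0.0907). It passed narrowly without palmitic acid array 1 (limma adjusted p = 0.0461), an array that is in neither group of this comparison but enters the estimate of the spread. Cmpk2 read 7.44, 7.24 and 7.23 with FABP4 and 7.49, 7.51 and 7.44 with both, a difference of 0.18 ± 0.06 (SE; limma adjusted p = 0.135). Without FABP4 array 1 the Cmpk2 difference was 0.25 (limma adjusted p = 0.0256). Members whose arrays with both agents were all above the FABP4 arrays numbered 9 of 31, or 29%, where 19.3% of all genes tested had this pattern: Ifnb1, Usp18, Isg15, Ddx58, Oas2, Oasl1, Rsad2, Cmpk2 and Igtp. No member had the reverse pattern, which 6.96% of all genes tested had.

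By role, the median difference in this comparison was 0.09 over the signalling and feedback genes, 0.05 over the sensors, -0.03 over the Ifit genes, 0.07 over the OAS genes, 0.07 over the Mx genes, 0.07 over the other effectors and 0.10 over the GTPases. Of the 10 members with a second probe, 5 had the same sign on both, and 2 second probes were at an unadjusted p under 0.05. Gbp5 differed by -0.10 on its second probe (limma unadjusted p = 0.0415) and by 0.01 on its brightest. Cmpk2 differed by 0.22 on its second probe (limma unadjusted p = 0.00848) and by 0.18 on its brightest. The 3 Ifit genes had differences from -0.06 to -0.01, and none of them passed the threshold. This comparison can also be made within slide 2, without FABP4 array 1. There Igtp (0.38; limma adjusted p = 0.0177) and Rsad2 (0.36; limma adjusted p = 0.0318) passed again, as 2 of 31 members where 1.23% of all genes tested rose. With slide as a fixed block Cmpk2 passed as well (0.25; limma adjusted p = 0.0255), making 3 members where 2.78% of all genes tested rose.

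**Figure D4:**
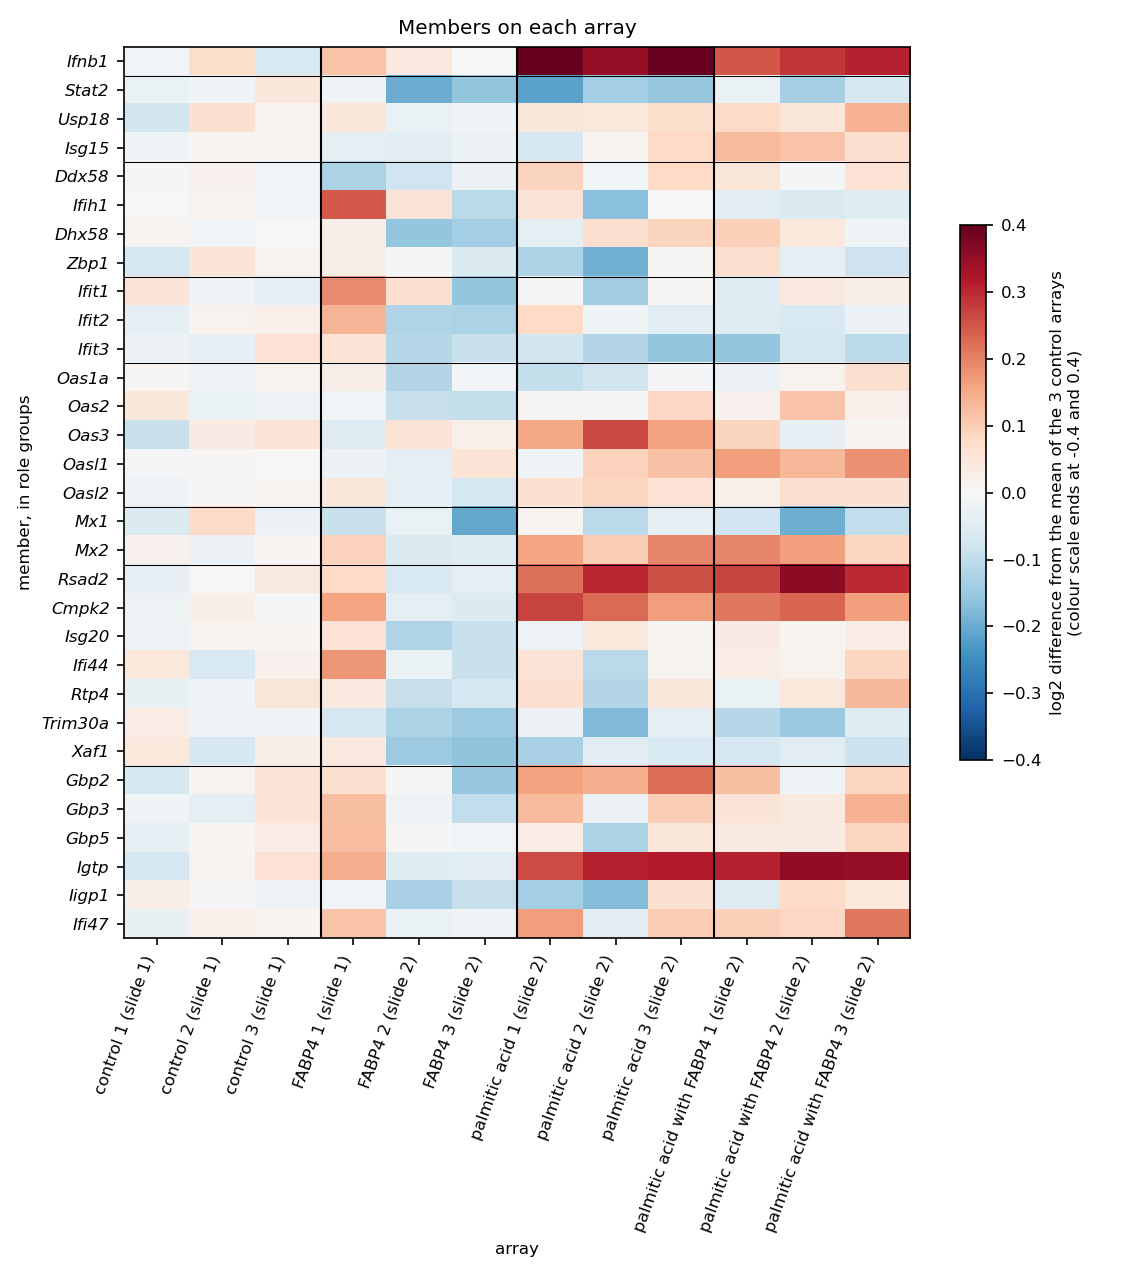
Log2 difference of each member (rows, in role groups) from the mean of the 3 control arrays, for each of the 12 arrays (columns, with their slide). Red is above and blue below the controls, with the colour scale ending at -0.4 and 0.4; Ifnb1, Rsad2, Cmpk2 and Igtp are red on the 6 palmitic acid arrays, and FABP4 array 1 differs from FABP4 arrays 2 and 3 over most rows.

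FABP4 without palmitic acid called none of the 31 members, where 0.017% of all genes tested, in either direction, were called (limma; 3 genes). No member reached an unadjusted p under 0.05 on its brightest probe, against 7.23% of all genes. Of the 10 members with a second probe, 5 had the same sign on both. The second Zbp1 probe differed by -0.49 (limma unadjusted p = 0.0422), where its brightest probe gave -0.01, and no other second probe fell under 0.05. The median over the members was -0.02, beside -0.01 over all genes tested. Stat2 was lowest, at -0.12 (95% confidence interval -0.25 to 0.01), and Ifih1, which encodes the RNA sensor MDA5, was highest, at 0.06 (95% confidence interval -0.12 to 0.25). The second Ifih1 probe had the opposite sign, at -0.09 (limma unadjusted p = 0.329). For Ifnb1 the difference was 0.05, with a 95% confidence interval from -0.10 to 0.20. Taken over all members, the 95% confidence intervals reached from -0.25 to 0.25. No member had all FABP4 arrays above the controls, a pattern of 4.01% of all genes tested, and 3 members, Isg15, Ddx58 and Trim30a, had them all below, a pattern of 6.42%. The arrays differed within the group. Relative to the control mean, the median member was 0.05 higher on FABP4 array 1 and lower by 0.04 and 0.07 on arrays 2 and 3, so that the group median joins arrays that lie on either side of the controls. Once slide is a fixed block, this comparison amounts to FABP4 array 1 against the controls. The members' median was then 0.05, with 22 of 31 above 0, beside 0.02 over all genes; Stat2 stood at -0.01 and Ifih1 at 0.25. No member was called in that fit, where 0.585% of all genes tested were called. At an unadjusted p under 0.05 there were 4 members, or 12.9%, against 11.5% of all genes.

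FABP4 in the presence of palmitic acid was compared within slide 2 alone. It called no member and 0% of all genes tested (limma; 1034 genes were at an unadjusted p under 0.05). Of the members, 2 reached an unadjusted p under 0.05, or 6.45%, against 5.88% of all genes. These were Oas3, which differed by -0.17 ± 0.06 (SE; limma adjusted p = 0.806), and Ifnb1, which differed by -0.16 ± 0.07 (SE; limma adjusted p = 0.806). In both genes the 3 arrays with both agents were all below the palmitic acid arrays, 4.26, 4.14 and 4.18 against 4.33, 4.44 and 4.33 for Oas3. Gbp2, a guanylate-binding protein, had the same pattern, which makes 3 of 31 members where 3.1% of all genes tested had it. Stat2 and Oasl1 had all arrays with both agents above the palmitic acid arrays, which is 2 of 31 members where 11.4% of all genes tested did. The median over the members was 0.01, beside 0.03 over all genes. Of the 10 members with a second probe, 4 had the same sign on both, and no second probe fell under an unadjusted p of 0.05. The second Ddx58 probe differed by -0.52 (limma unadjusted p = 0.0559), where its brightest probe gave -0.02.

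The interaction asks whether palmitic acid acted differently with FABP4 present. It was called for no member and for 0% of all genes tested (limma; 1218 genes at an unadjusted p under 0.05). The difference between the palmitic acid effects with and without FABP4 was 0.06 for Rsad2 (95% confidence interval -0.10 to 0.22), 0.02 for Igtp (-0.17 to 0.21) and -0.04 for Cmpk2 (-0.23 to 0.15). For Ifnb1 it was -0.21 (95% confidence interval -0.42 to -0.00; limma unadjusted p = 0.0461, adjusted p = 0.713). For Stat2 it was 0.22 (95% confidence interval 0.03 to 0.40; limma unadjusted p = 0.024, adjusted p = 0.707). The control arrays and the palmitic acid arrays of this contrast lie on different slides. When slide entered as a fixed block, the Stat2 difference was 0.11 ± 0.08 (SE) and that of Ifnb1 -0.27 ± 0.11 (SE), no member was called, and 0.21% of all genes tested were. The median over the members was 0.04 without the block, with 25 above 0, and -0.05 with it, with 11 above 0.

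Other genes of the pathway were taken from a list of 62 names, of which 58 were tested. With palmitic acid alone, 2 rose and 1 fell, or 3.45% and 1.72%, where 4.88% of all genes rose and 3.73% fell. With FABP4 present, 2 rose and none fell, or 3.45% and 0%, where 2.86% and 0.943% of all genes did. These shares are near those of all genes, and the called genes are named only as single genes. No gene of the list passed in the FABP4 comparisons or the interaction. Trim25, a ubiquitin ligase that acts on RIG-I signalling, rose with palmitic acid alone by 0.31 ± 0.05 (SE; limma adjusted p = 0.00977). It rose with FABP4 present by 0.23 ± 0.05 (SE; limma adjusted p = 0.0488). Ticam1, the adaptor TRIF that couples Toll-like receptors to interferon induction, rose with palmitic acid alone by 0.25 ± 0.06 (SE; limma adjusted p = 0.0377). Cxcl10, a T cell chemokine that interferons induce, fell by 0.19 (SE 0.05; limma adjusted p = 0.0477). Nt5c3, a pyrimidine nucleotidase, rose with FABP4 present by 0.31 ± 0.06 (SE; limma adjusted p = 0.0186). With slide as a block Nt5c3 kept its call (limma adjusted p = 0.0186), and none of Trim25, Ticam1 and Cxcl10 did, with limma adjusted p-values from 0.0712 to 0.595. The block left Ticam1 at 0.25 and Trim25 at 0.34 and 0.24, while Cxcl10 moved to -0.12. The median over the 58 genes was 0.02 with palmitic acid alone and 0.07 with FABP4 present, beside 0.00 and 0.05 over all genes tested.

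Some markers of cell identity moved along with palmitic acid. Without FABP4, Cd68 rose by 0.26 and Itgam fell by 0.34 among 9 macrophage markers tested, and with FABP4 present Cd68 rose by 0.35 and Csf1r by 0.26. The summed macrophage marker signal, relative to the 75th percentile, was 1315 to 1356 on the control arrays and 1360 to 1398 on the palmitic acid arrays. Here and below, sums run over every probe of the listed markers on the array, also probes and genes that did not pass the filter. Among 4 of 5 markers of plasmacytoid dendritic cells tested, Tlr7 rose by 0.25 and Cox6a2 fell by 0.36 without FABP4, with summed signals of 289 to 306 in controls and 290 to 303 with palmitic acid. Lck, 1 of 3 T cell markers of 5 that were tested, rose by 0.25 with FABP4 present, while Cd3d and Cd8a did not pass the filter. The T cell sum was 22.7 to 25.2 with FABP4 and 27.3 to 28.3 with both agents. Retn, the only adipocyte marker that passed the filter, fell by 0.52 without FABP4. Col1a2, the only fibroblast marker that passed it, was not called. It differed by 0.42 without FABP4 (limma adjusted p = 0.168) and by 0.49 with FABP4 present (limma adjusted p = 0.157). The fibroblast sum was 0.258 to 0.304 in controls and 0.326 to 1.72 with palmitic acid. After blocking on slide, none of the marker calls without FABP4 was kept, with limma adjusted p-values from 0.175 to 0.462; Itgam moved to -0.15, and the others lay at 0.27 for Cd68, 0.20 for Tlr7, -0.45 for Cox6a2 and -0.50 for Retn. The calls of Cd68, Csf1r and Lck with FABP4 present were kept, with limma adjusted p-values of 0.0212, 0.0254 and 0.049. The part of these shifts in the interferon gene results was not tested, and fewer cells of a kind and less RNA per cell cannot be told apart in bulk RNA.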

How the data were processed

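The members and lists were chosen with earlier results of these data known. Per the labels' protocols, 50 ng of total RNA was labelled with Cy3. Per the file headers, the authors quantified spots by means of Agilent Feature Extraction (10.7.3.1), a program that takes off background, and the deposited processed signal is an intensity that is not normalized between arrays. The authors' value table held the same signals to within 0.005. Per the file headers, probe positions are on mm9, and spot flags (other columns) mark control spots, outliers, saturation and signals well above background.

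Here log2 of the processed signal was taken minus the log2 of the 75th percentile of 59305 gene spots per array (250 to 315 in signal). Control spots did not enter. Spots marked as outliers were left out of the gene values but not of the percentile. For a gene to be tested, at least 1 of its probes had to be above background, by the well-above flag, on each of the 3 arrays of some group, and the brightest of these stood for the gene. Of the members, 21 had 1 probe and 10 had 2. Group means over all 12 arrays were fitted with limma 3.58.1 (lmFit, eBayes; two-sided), R 4.3.3, with Benjamini-Hochberg adjustment over all tested genes and a threshold of 0.05. The fit was tested on simulated data. The number of arrays limits the precision. Genes were named for full values when called in a comparison, together with Ifnb1, Stat2 and the first gene of each role without a call. Oas3, Isg15, Usp18, Zbp1, Gbp2, Gbp5 and Ifih1 were added after their values were seen. Replicate numbers did not pair the samples (see the pairing check in the closing section). Alternatives concerned scaling, background, filter, probes, slide, replicate number, the samples fitted, the variance model and each array left out.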

Additional observations from a re-analysis of the deposited data

How the results depend on the processing

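Besides leaving out each of the 12 arrays, 15 alternatives were run, of which the slide 2 arrays alone could give values only for palmitic acid with FABP4 present and FABP4 with palmitic acid present. No member called for palmitic acid changed direction in any of them, and no alternative called a member for FABP4 without palmitic acid, FABP4 with palmitic acid present or the interaction (limma, 0 members). For palmitic acid without FABP4, 4 members were called, and the count was 7 with no scaling, 1 with no filter on dim probes, 2 with slide as a fixed block and 2 with slide as a random block. Of all 17596 genes tested, 1515 were called in the fit used above, in either direction. The number was 3055 with no scaling, 138 with the fixed block and 191 with the random block. With no filter it was 513 of 34797 genes. For palmitic acid with FABP4 present, 2 were called, and the count was 0 with no scaling, 0 with no filter, 0 with only the groups compared and 5 with trended and robust eBayes. Of all 17596 genes tested, 670 were called in the fit used above, in either direction. The number was 159 with no scaling, 94 with only the groups compared and 1138 with trended and robust eBayes. With no filter it was 185 of 34797 genes. Leaving out 1 array gave 1 to 6 members in the first comparison, where 655 to 2716 of all genes tested were called. It gave 1 to 3 members in the second, where 247 to 601 of all genes were called. The fewest in the first came without control array 1 and without palmitic acid array 2, which left Ifnb1. Without palmitic acid array 3, 2 were left. In the second, 1 member was left without FABP4 array 2 or 3 or any array with both agents. FABP4 array 1 alone carried the slide term. With no scaling the median over all genes moved to 0.17 for palmitic acid without FABP4 and to -0.05 with FABP4 present, and the members' median to 0.18 and -0.02, with 31 and 12 of 31 members above 0; for FABP4 with palmitic acid present 0 of 31 were then above 0, at a median of -0.12 beside -0.09 over all genes. The same-number correlations of deviations from the group means ran from -0.077 to 0.168, with 1 of 18 above 0.1. The numbers were therefore not taken as pairs. With the replicate block 3 members were called for palmitic acid without FABP4, where 1339 of all genes tested were. With FABP4 present 1 member was called, where 408 of all genes were, and 0 members were called in the other comparisons. Signal over background did not limit any member.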
